A study of Mus musculus with 24 samples.

Results

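The subject is a difference between 2 responses: the change in gene expression that carbon nanotubes coated with a CpG oligonucleotide (SWNT/CpG) gave in RAW-Blue macrophages, minus the change that they gave in K-Luc glioma cells. It rests on 9 of the 24 RNA-seq libraries of the series, chosen by the labels of line and treatment. These are 2 libraries of RAW-Blue with SWNT/CpG, 2 of untreated RAW-Blue, 3 of K-Luc with SWNT/CpG and 2 of untreated K-Luc. RAW-Blue is the RAW 264.7 mouse macrophage line with a stably integrated secreted phosphatase reporter for NF-kB and AP-1. K-Luc is the mouse glioma line KR158B, of C57BL/6 origin, carrying luciferase. Treated cells received single-walled carbon nanotubes dispersed in the oligonucleotide CpG-28, with 10 µg/mL of each, and untreated cells received water. Both lines adhered for 24 h around a 2-well insert and were then kept with the treatment in a migration assay, RAW-Blue for 47 to 50 h and K-Luc for 17 to 19 h. K-Luc was plated inside and outside the insert and RAW-Blue only inside, so cell line, length of treatment and plating cannot be told apart in any difference given here. The labels do not say that replicates are separate cultures, and p-values then measure a spread between libraries that may be technical. No labelled group received nanotubes coated with DNA that lacks CpG.

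Unmethylated CpG DNA is read in endosomes by Toll-like receptor 9 (TLR9), which needs the transport protein UNC93B1 and signals through MYD88 to NF-kB, AP-1 and interferon regulatory factors. Macrophages answer with cytokines, chemokines and, through secreted type I interferon, with antiviral genes. The cell cycle, cholesterol synthesis and lysosome programmes are each run by shared transcription factors, so their genes often move together. A gene whose response reverses is one that goes up in one line and down in the other under the same agent.

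The 9 libraries held 13318636 to 22450367 counts, so that a gene at 1 CPM (a gene count scaled to a library of 1000000 counts) had 13 to 22 counts. The 2 untreated RAW-Blue libraries stood apart from each other: over 9935 genes present in both lines their median absolute log2 difference was 0.243, against 0.062 to 0.118 between other libraries of 1 group. Counts of calls are therefore given without each of them where they move, and the named genes were refitted without each library. Of 18 macrophage markers, 16 were at 1 CPM or more in both RAW-Blue groups, with a sum of 8280 to 8490 CPM in SWNT/CpG-treated and 8170 to 8810 CPM in untreated cells, but C1qa was at 0 and Mertk at 0 or 1 count. In K-Luc the same list summed to 32.2 to 33.7 CPM in treated and 32.2 to 33 CPM in untreated libraries, with Adgre1, Tyrobp and Aif1 at 0. Most of that sum was Mertk (19.3 CPM in treated, 19 CPM in untreated) and Cd14 (8.27 CPM in treated, 9.2 CPM in untreated). Mertk thus ran against the list. K-Luc expressed the glial and stem markers Sox2 (94.5 CPM in treated, 138 CPM in untreated cells), Nes, Cspg4 and Pdgfra, but Olig1 and Olig2 were at 0 and Gfap, S100b and Sox10 did not pass 5 counts in any of its libraries. The fibroblast genes Col1a1 (7510 CPM in treated, 4390 CPM in untreated) and Acta2 (3480 CPM in treated, 1470 CPM in untreated) were high in K-Luc. Of the 14 fibroblast and vessel genes listed, 6 were at 1 CPM or more in both K-Luc groups. Dcn (0.16 CPM in treated, 0.246 CPM in untreated) and Lum (0 CPM) were not among them. In K-Luc the list summed to 12300 to 13800 CPM in treated and 6360 to 7710 CPM in untreated libraries. The part of these genes in the results was not tested. The lymphoid and dendritic markers summed to 4.2 CPM or less in every library. In such bulk RNA fewer cells of a type and less RNA per cell cannot be told apart.

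The difference was tested gene by gene in 1 model of all libraries with a term for sequencing run, and a gene was called at an adjusted p under 0.05. It was called for 3392 of 13350 tested genes (25.4%). Of the 9846 genes with a mean of at least 1 CPM in both lines, 32.6% were called. That share is the nearer one for lists whose members are mostly present in both lines. In 1916 genes (14.4%) the RAW-Blue response was the higher, and in 1476 (11.1%) the lower, of which 399 and 291 differed by more than 2-fold. With the size factors of DESeq2 in place of the main scaling the split was 1531 higher and 1904 lower, with DESeq2 itself 1553 and 1919, and with the 4 compared groups alone 853 and 1048. No gene of the 3392 changed sign under any of the 18 settings tried, which reuse the libraries in which the genes were called. Without untreated RAW-Blue library 2 the count was 4878, and without untreated K-Luc library 2 it was 2019. Within RAW-Blue, SWNT/CpG raised 1969 genes (14.7%) and lowered 1887 (14.1%). Within K-Luc it raised 2036 (15.3%) and lowered 2223 (16.7%).

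Reversal was called for 553 genes, those with a called difference and called responses of opposite sign. Of these, 224 (1.68% of tested genes) were higher in treated than untreated RAW-Blue and lower in treated than untreated K-Luc, and 329 (2.46%) did the opposite. With the size factors of DESeq2 the 2 kinds numbered 168 and 437, and with DESeq2 itself 167 and 446. Another 718 genes rose and 543 fell in RAW-Blue with no call in K-Luc, and 470 rose and 713 fell in K-Luc with no call in RAW-Blue. In 181 genes both lines moved the same way by called but unequal amounts: 61 rose more in RAW-Blue, 8 rose more in K-Luc, 100 fell more in K-Luc and 12 fell more in RAW-Blue. Without untreated K-Luc library 2 the reversals numbered 75 and 149, and without untreated RAW-Blue library 2 they numbered 493 and 570. The first kind numbered 139 without untreated K-Luc library 1, and 136 and 142 without the first and the second treated RAW-Blue library. With the compared groups alone they numbered 66 and 221, and with run 2 alone 103 and 204.

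**Figure D1:**
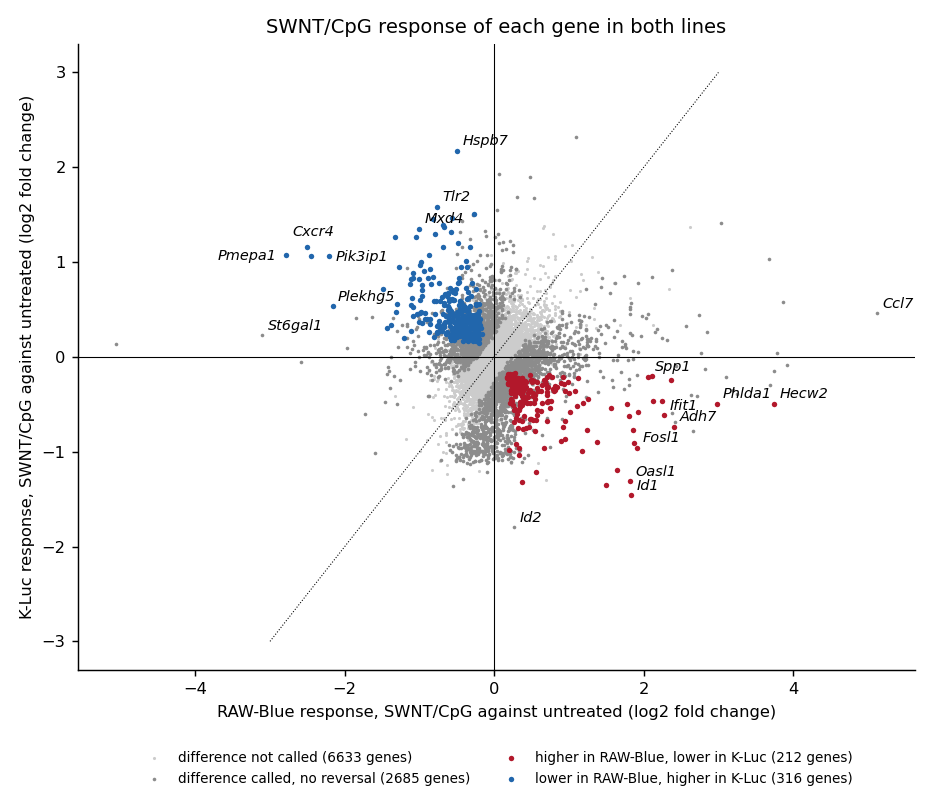
Each point is 1 of 9846 genes with a mean of at least 1 CPM in both lines, placed by its log2 response in RAW-Blue (x axis) and in K-Luc (y axis), with the dotted line marking equal responses. The 212 red genes lie to the lower right and the 316 blue genes to the upper left, and RAW-Blue responses reach farther from 0 (Ccl7, 5.12) than K-Luc responses.

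Genes that rose in RAW-Blue and fell in K-Luc included the transcription regulators Id1 and Fosl1. Id1, an inhibitor of DNA binding by basic helix-loop-helix factors and a classic target of BMP signalling, had 13.2 and 13.5 CPM in SWNT/CpG-treated RAW-Blue, against 4.36 and 3.2 CPM in untreated RAW-Blue, and 24, 23 and 25.2 CPM in SWNT/CpG-treated K-Luc, against 52.6 and 75.4 CPM in untreated K-Luc. The groups did not overlap in either line. Its difference was 3.29 ± 0.23 on the log2 scale (estimate ± SE, adjusted p = 1.59e-09), from 1.83 in RAW-Blue and -1.46 in K-Luc. Fosl1 encodes the AP-1 subunit FRA1 and had 57.9 and 53.5 CPM in SWNT/CpG-treated RAW-Blue, against 17.7 and 12.1 CPM in untreated RAW-Blue, and 37.1, 48.4 and 48.6 CPM in SWNT/CpG-treated K-Luc, against 73.2 and 92.7 CPM in untreated K-Luc. It was thus lower in untreated RAW-Blue than in untreated K-Luc, and higher in treated RAW-Blue than in treated K-Luc, with a difference of 2.87 ± 0.18 (adjusted p = 6.61e-10). Adh7, an alcohol dehydrogenase that oxidises retinol, had 18 and 12 CPM in SWNT/CpG-treated RAW-Blue, against 2.59 and 2.99 CPM in untreated RAW-Blue, and 129, 106 and 109 CPM in SWNT/CpG-treated K-Luc, against 199 and 190 CPM in untreated K-Luc. Its difference was 3.14 ± 0.22 (adjusted p = 1.74e-09).

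Phlda1, which encodes a pleckstrin-homology-like protein linked to cell death and survival, had 54.9 and 50.9 CPM in SWNT/CpG-treated RAW-Blue, against 6.83 and 6.51 CPM in untreated RAW-Blue, and 25.8, 21.7 and 27.3 CPM in SWNT/CpG-treated K-Luc, against 37.1 and 33.6 CPM in untreated K-Luc. Its difference was 3.48 ± 0.27 (adjusted p = 2.71e-08), and the fall in K-Luc was small, -0.49 ± 0.16 (adjusted p = 0.0272), and was lost in 7 of 18 alternative settings. The ubiquitin ligase gene Hecw2 had the largest difference of this kind, 4.23 ± 0.40, at 4.59 and 3.07 CPM in treated and 0.295 and 0.263 CPM in untreated RAW-Blue, and at 17.2, 15.3 and 15.9 CPM in treated and 20.7 and 24.2 CPM in untreated K-Luc. Bcl6b, a zinc-finger repressor, was low in RAW-Blue (2.38 and 1.86 CPM treated, 0.884 and 0.473 CPM untreated) and fell to 56.1, 53.8 and 49.7 CPM in treated K-Luc, against 113 and 128 CPM in untreated K-Luc. The peroxisomal oxidase gene Hao1 (difference 2.85) and Podxl, which encodes the sialomucin podocalyxin (difference 2.81), also reversed, both at low CPM in 1 line. The interferon-induced genes Oasl1 and Ifit1 complete the 10 largest and are given with their family.

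Among genes that fell in RAW-Blue and rose in K-Luc the largest difference was that of Pmepa1, a membrane protein that is induced by TGF-beta and restrains SMAD signalling. Pmepa1 had 0.406 and 0.906 CPM in SWNT/CpG-treated RAW-Blue, against 4.65 and 4.68 CPM in untreated RAW-Blue, and 462, 409 and 422 CPM in SWNT/CpG-treated K-Luc, against 248 and 175 CPM in untreated K-Luc. Its difference was -3.86 ± 0.29 (adjusted p = 2.37e-09), and no group overlapped its control. Cxcr4, the receptor for the chemokine CXCL12, had 4.93 and 3.32 CPM in SWNT/CpG-treated RAW-Blue, against 23.2 and 23.5 CPM in untreated RAW-Blue, and 2.19, 1.41 and 2.25 CPM in SWNT/CpG-treated K-Luc, against 1.12 and 0.751 CPM in untreated K-Luc. The RAW-Blue fall, -2.51 ± 0.20, was far outside the spread of its libraries, whereas the K-Luc rise, 1.16 ± 0.34 (adjusted p = 0.0107), was lost with run 2 alone, without untreated K-Luc library 2 and without treated K-Luc library 3.

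Tlr2, the receptor for bacterial lipopeptides, had 106 and 111 CPM in SWNT/CpG-treated RAW-Blue, against 189 and 179 CPM in untreated RAW-Blue, and 81.8, 106 and 90.9 CPM in SWNT/CpG-treated K-Luc, against 27.5 and 32.5 CPM in untreated K-Luc. Treatment left the lines at like levels where untreated RAW-Blue had been well above untreated K-Luc, and the difference was -2.35 ± 0.11 (adjusted p = 2.96e-12). Hspb7, a small heat shock protein, had 36.8 and 39.1 CPM in SWNT/CpG-treated RAW-Blue, against 56.7 and 50.2 CPM in untreated RAW-Blue, and 4.75, 5.07 and 3.77 CPM in SWNT/CpG-treated K-Luc, against 1.05 and 0.971 CPM in untreated K-Luc. Here the K-Luc rise, 2.17, made up most of the difference of -2.67. Pik3ip1, an inhibitor of phosphoinositide 3-kinase, had 2.09 and 2.06 CPM in SWNT/CpG-treated RAW-Blue, against 8.78 and 10.5 CPM in untreated RAW-Blue, and 73, 63.7 and 60.5 CPM in SWNT/CpG-treated K-Luc, against 35.6 and 29.5 CPM in untreated K-Luc, a difference of -3.28 ± 0.31.

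Plekhg5, an exchange factor for small GTPases, fell to 3.08 and 3.78 CPM in treated RAW-Blue, against 15.7 and 15.2 CPM in untreated RAW-Blue, and rose to 177, 159 and 166 CPM in treated K-Luc, against 118 and 114 CPM in untreated K-Luc. Mxd4, a MAX partner that opposes MYC, fell to 8.65 and 7.75 CPM in treated RAW-Blue, against 17.3 and 15.5 CPM in untreated RAW-Blue, and rose to 48.5, 48.9 and 46.6 CPM in treated K-Luc, against 18.4 and 19.1 CPM in untreated K-Luc. Hp (haptoglobin, difference -3.84), Lrrc14b (-3.52) and the matrix gene Vwa1 (-2.59) also reversed, at 5.42 CPM or less in every library. Reversal was followed across the settings for the genes with the largest differences of each reversing kind, Oasl1 and Ifit1 included. Among them the reversal of Id1, Adh7, Fosl1, Bcl6b, Pmepa1, Pik3ip1, Plekhg5, Mxd4 and Tlr2 was called in all 18 alternative settings. That of the other 11 of these genes was lost in 1 to 7 settings, that of Hp in 5 and that of Podxl in 6. Reversing genes named only further below are not part of these counts.

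**Figure D2:**
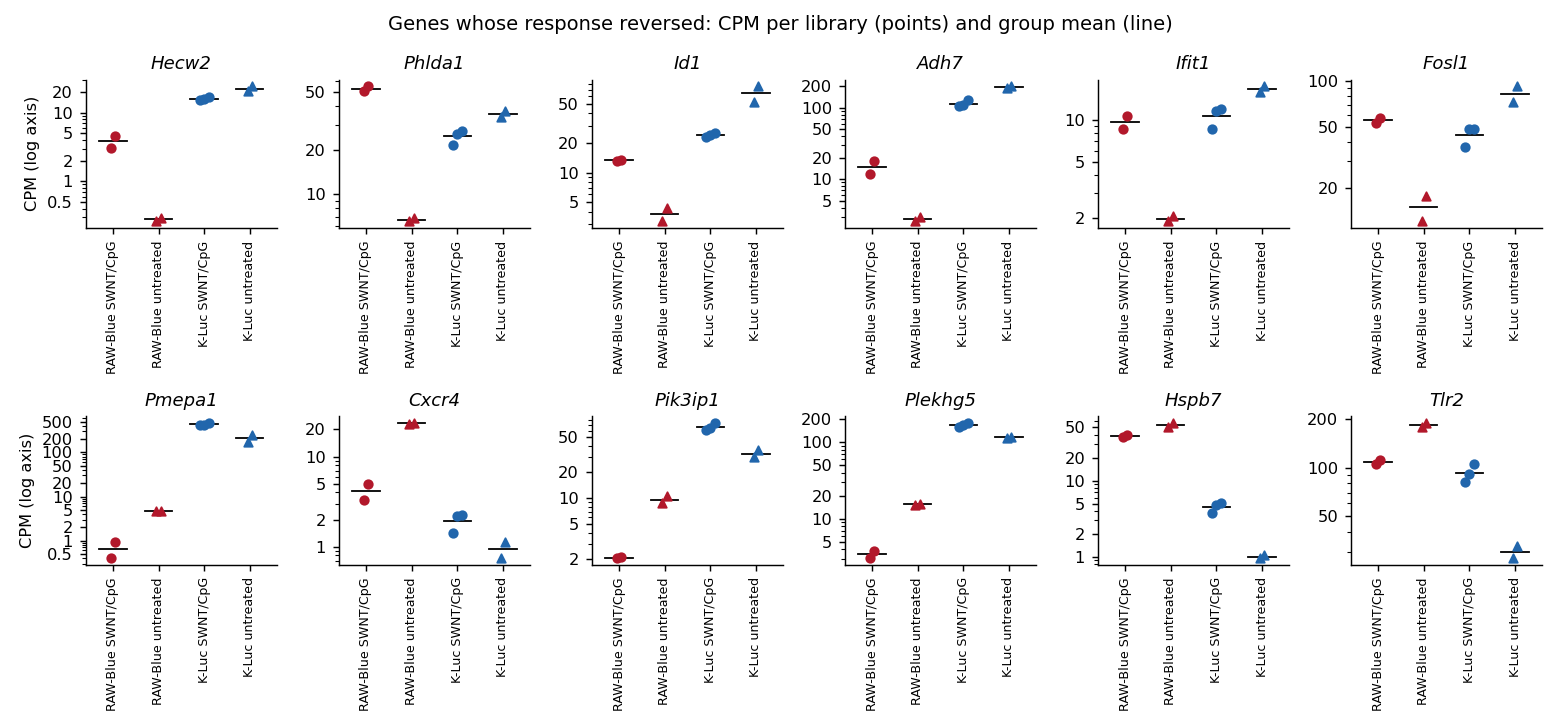
CPM on log axes of 12 reversing genes in each of the 9 libraries (points) with group means (lines), RAW-Blue in red, K-Luc in blue, SWNT/CpG as circles and untreated as triangles. In the upper row RAW-Blue circles lie above the triangles and K-Luc circles below them (Id1, 13.2 and 13.5 against 4.36 and 3.2 CPM and 24, 23 and 25.2 against 52.6 and 75.4 CPM), and in the lower row the order is turned round.

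Other large differences came mainly from RAW-Blue. Ccl7 and Ccl2, chemokines that draw monocytes, were among the 10 largest positive differences. Ccl7 had 26.3 and 20.5 CPM in SWNT/CpG-treated RAW-Blue, against 0.884 and 0.473 CPM in untreated RAW-Blue, and 5.26, 6.24 and 5.84 CPM in SWNT/CpG-treated K-Luc, against 4.04 and 4.33 CPM in untreated K-Luc, a difference of 4.66 ± 0.33 (adjusted p = 1.02e-09) with no call in K-Luc (0.46 ± 0.19, adjusted p = 0.064). Ccl2 rose in both lines, by 3.86 in RAW-Blue and 0.58 in K-Luc. Podoplanin (Pdpn), a mucin-type glycoprotein, had 7.55 and 6.95 CPM in SWNT/CpG-treated RAW-Blue, against 0.471 and 0.473 CPM in untreated RAW-Blue, and 71, 77.6 and 75.6 CPM in SWNT/CpG-treated K-Luc, against 77.6 and 80.1 CPM in untreated K-Luc, with a call in RAW-Blue alone. Cth, the cystathionine gamma-lyase that makes cysteine, had 86.6 and 65.4 CPM in treated and 5.48 and 6.2 CPM in untreated RAW-Blue, with a difference of 3.99 ± 0.29. The uridine phosphorylase gene Upp1 (3.65) and the growth regulator Myc (3.31) also rose in RAW-Blue with no call in K-Luc, where Myc had 74.1, 72.3 and 115 CPM in treated K-Luc, against 97.1 and 98.7 CPM in untreated K-Luc.

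On the negative side St6gal1, which adds sialic acid to glycoproteins, fell to 4.59 and 3.47 CPM in treated RAW-Blue, against 33.5 and 35.3 CPM in untreated RAW-Blue, while K-Luc had 50.3, 44.1 and 48.7 CPM with treatment and 44.4 and 38.9 CPM without. Its difference was -3.33 ± 0.19 (adjusted p = 2.3e-11), and the K-Luc response was not called.

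The receptor of CpG DNA was detected in RAW-Blue and was at 0 or 1 count in K-Luc. Tlr9 had 18.1 and 20.1 CPM in SWNT/CpG-treated RAW-Blue, against 17.1 and 15.9 CPM in untreated RAW-Blue, and 0, 0 and 0 CPM in SWNT/CpG-treated K-Luc, against 0 and 0.0441 CPM in untreated K-Luc, the last of which is 1 count, and no fold is given for K-Luc. Unc93b1 was at 292 and 270 CPM in treated and 301 and 280 CPM in untreated RAW-Blue, and at 5.69, 5.77 and 5.97 CPM in treated and 5.16 and 4.9 CPM in untreated K-Luc. Its difference was not called (-0.27 ± 0.12, adjusted p = 0.123). For Myd88 the difference was -0.52 ± 0.16 (adjusted p = 0.0166), with neither response called. Tnf had 633 and 560 CPM in treated and 135 and 124 CPM in untreated RAW-Blue, and 0 counts in all 5 K-Luc libraries. Of 32 tested genes for nucleic acid sensors and TLR signalling the difference was higher in 7 and lower in 8 (46.9% called, beside 25.4% of all genes), with a median of -0.03 beside 0.04 over all tested genes. Besides Tlr2 they included Tlr1, a partner of TLR2, which was higher (0.81 ± 0.21, called in 17 of 18 alternatives). Another was Cnpy3 (-0.46), a chaperone that folds Toll-like receptors.

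Of 33 tested cytokines and chemokines, 25 rose in RAW-Blue and none fell, and in K-Luc 7 rose and 2 fell. Of all tested genes 14.7% rose in RAW-Blue, and 15.3% rose and 16.7% fell in K-Luc. Many of the listed genes are near 0 counts in K-Luc. The list's median over all members (RAW-Blue 2.18, K-Luc 0.34) therefore holds fitted values that depend on a prior. The difference was higher in 10 of the 33 and lower in 1, and 33.3% called is near the 25.4% of all genes. Over the 12 members with at least 1 CPM on average in both lines the median was 1.35 in RAW-Blue and 0.20 in K-Luc, and the difference was higher in 7 and lower in none, where 32.6% of the 9846 genes with that level were called in either direction. Ptgs2, the inducible cyclooxygenase, reversed: it had 530 and 419 CPM in SWNT/CpG-treated RAW-Blue, against 123 and 147 CPM in untreated RAW-Blue, and 58.3, 55.3 and 64.8 CPM in SWNT/CpG-treated K-Luc, against 73.9 and 106 CPM in untreated K-Luc (difference 2.44 ± 0.21). Ccl5, a chemokine for T cells, was higher only by its RAW-Blue rise (difference 2.53 ± 0.28).

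The NF-kB subunits and feedback genes did not move as a block. Of 26 tested, 9 had a higher and 5 a lower difference (53.8% called, beside 25.4% of all genes), and the median was 0.23. Nfkbiz encodes IkB-zeta, which is needed for secondary response genes. It had 104 and 82.9 CPM in SWNT/CpG-treated RAW-Blue, against 14 and 17.4 CPM in untreated RAW-Blue. In K-Luc it had 31.2, 28.4 and 28.3 CPM with treatment, against 25.4 and 22.4 CPM without. Its difference was 2.24 ± 0.16. Zc3h12a, an RNase that limits cytokine mRNA, rose in both lines, by 1.92 in RAW-Blue and 0.78 in K-Luc. Ier3, an early response gene, rose in RAW-Blue and fell in K-Luc (difference 1.81 ± 0.19). Nfkbie, which encodes IkB-epsilon, did the reverse, with 8.65 and 7.15 CPM in treated and 16.1 and 17.4 CPM in untreated RAW-Blue, and 23, 25.9 and 26.5 CPM in treated and 14.2 and 13.7 CPM in untreated K-Luc. For Nfkbia (IkB-alpha) the difference was 0.25 ± 0.16 (adjusted p = 0.293), not called.

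Most interferon-stimulated genes rose in RAW-Blue. Of 42 tested, 38 rose and 1 (Irf1) fell in RAW-Blue, whereas in K-Luc 5 rose and 6 fell, and the difference was higher in 23 and lower in 1. Over all genes 14.7% rose in RAW-Blue, 15.3% rose and 16.7% fell in K-Luc, and 14.4% had a higher difference, so that the K-Luc counts of the list lie near or under those shares. The median response was 1.42 in RAW-Blue and 0.17 in K-Luc, and 1.34 and 0.20 over the 31 members at 1 CPM or more in both lines. Promoters are shown for Isg15 and Ifit1, which reversed, because both hold the core of the interferon-stimulated response element, the site of the ISGF3 complex. Sequences are from RefSeq on build GRCm38.p6, from 250 bases before to 50 bases after the start, read 5′ to 3′ on the gene's strand, and the capitals mark AAANNGAAA on either strand.
Isg15: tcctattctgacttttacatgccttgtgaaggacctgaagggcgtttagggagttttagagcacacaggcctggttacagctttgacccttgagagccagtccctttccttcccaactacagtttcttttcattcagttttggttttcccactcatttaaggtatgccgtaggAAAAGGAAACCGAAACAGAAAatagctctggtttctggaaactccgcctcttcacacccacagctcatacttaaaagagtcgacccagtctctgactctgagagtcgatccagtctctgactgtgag
Ifit1: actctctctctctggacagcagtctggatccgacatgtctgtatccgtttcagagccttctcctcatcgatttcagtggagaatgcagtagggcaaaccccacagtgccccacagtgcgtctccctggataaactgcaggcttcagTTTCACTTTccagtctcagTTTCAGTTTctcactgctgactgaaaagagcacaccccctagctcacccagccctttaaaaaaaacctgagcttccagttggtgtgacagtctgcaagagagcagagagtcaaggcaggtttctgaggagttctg
These lie at chr4:156200769-156201068 (minus strand) and chr19:34640639-34640938 (plus strand). The 3 matches of Isg15 overlap in 1 run, and Ifit1 has 2 separate ones on the other strand. Of the 34 listed genes with a promoter in the table, 24 (70.6%) held the core, against 9.72% of 10118 tested genes with a promoter. Ifit2, another reversing member of the list, held no match in either of its 2 promoters. The choice of this motif was made after the values were seen.

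Isg15, a ubiquitin-like protein that is joined to viral and host proteins, had 9.81 and 8.46 CPM in SWNT/CpG-treated RAW-Blue, against 1.89 and 1.94 CPM in untreated RAW-Blue, and 6.13, 4.27 and 4.5 CPM in SWNT/CpG-treated K-Luc, against 8.01 and 6.22 CPM in untreated K-Luc. Its difference was 2.71 ± 0.21 (adjusted p = 4.09e-09), although the highest treated K-Luc library lies just under the lower untreated one. Ifit1, which binds viral RNA ends, had 10.6 and 8.56 CPM in SWNT/CpG-treated RAW-Blue, against 1.89 and 2.05 CPM in untreated RAW-Blue, and 11.5, 11.8 and 8.5 CPM in SWNT/CpG-treated K-Luc, against 17.2 and 15.8 CPM in untreated K-Luc, a difference of 2.89 ± 0.30. Oasl1, an oligoadenylate synthetase-like protein that restrains Irf7 translation in mouse, had 71 and 62.2 CPM in SWNT/CpG-treated RAW-Blue, against 21.7 and 16.2 CPM in untreated RAW-Blue, and 0.876, 1.31 and 0.965 CPM in SWNT/CpG-treated K-Luc, against 2.25 and 2.78 CPM in untreated K-Luc, a difference of 3.13 ± 0.31. Ifit2 rose in RAW-Blue and fell by a little in K-Luc (difference 1.34 ± 0.14), a fall lost in 8 alternatives. Ifitm3, an endosomal restriction factor, also reversed (0.79 in RAW-Blue, -0.34 in K-Luc), as did Cmpk2, a mitochondrial nucleotide kinase near 0 in K-Luc. The members that rose in K-Luc were Isg20, Ifi47, Irgm1, Gbp2 and Zbp1, by 0.43 for Isg20 and 1.03 for Ifi47, and all 5 also rose in RAW-Blue, Isg20 and Zbp1 by a larger, called amount. Irf1, a transcription factor of the interferon-gamma pathway, had the 1 lower difference (-0.48 ± 0.14).

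Genes of cell division fell mainly in K-Luc. All 42 tested genes of mitosis fell in K-Luc, beside 16.7% of all genes. In RAW-Blue 21 fell, beside 14.1% of all genes, and none rose. The median responses were -0.26 in RAW-Blue and -0.98 in K-Luc. The difference was higher in 38 and lower in none (90.5% called, beside 25.4% of all genes), with a median of 0.72. Of 38 genes of DNA replication 10 fell in RAW-Blue and all in K-Luc, the difference was higher in 34 and lower in none, and the medians were -0.19 in RAW-Blue and -0.90 in K-Luc. Without untreated RAW-Blue library 2 as many as 11 mitosis genes were called higher in RAW-Blue and 20 lower, and without treated RAW-Blue library 1 none was higher and 13 lower. Of the replication genes 2 were called higher and 2 lower in RAW-Blue without untreated library 1, 1 higher and 23 lower without untreated library 2, and none higher and 2 lower without treated library 1. The RAW-Blue counts thus rest on single libraries. In K-Luc 40 mitosis and 37 replication genes were called lower without untreated K-Luc library 2, and all 42 and 38 without each of the other K-Luc libraries. With the compared groups alone the difference was higher in 26 mitosis and 22 replication genes. Summed over the mitosis genes, the RAW-Blue libraries had 6630 and 7400 CPM with treatment and 7270 and 8940 CPM without, which overlap. The K-Luc libraries had 6050, 6150 and 6200 CPM with treatment and 11500 and 12300 CPM without, which are far apart.

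Promoters of mitotic genes commonly hold the CCAAT box bound by NF-Y and the cell cycle genes homology region (CHR, TTTGAA) bound by the DREAM and MMB complexes. The promoters of Ncapg, a condensin subunit, and Anln, the cytokinesis scaffold anillin, are shown with both in capitals (either strand), as 2 of the 4 mitosis genes with the smallest adjusted p.
Ncapg: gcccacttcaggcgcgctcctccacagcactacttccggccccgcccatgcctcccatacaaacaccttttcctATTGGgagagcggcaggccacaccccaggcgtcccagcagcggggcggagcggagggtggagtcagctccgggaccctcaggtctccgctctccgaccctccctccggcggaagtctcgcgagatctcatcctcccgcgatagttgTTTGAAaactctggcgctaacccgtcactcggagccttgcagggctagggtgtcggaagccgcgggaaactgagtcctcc
Anln: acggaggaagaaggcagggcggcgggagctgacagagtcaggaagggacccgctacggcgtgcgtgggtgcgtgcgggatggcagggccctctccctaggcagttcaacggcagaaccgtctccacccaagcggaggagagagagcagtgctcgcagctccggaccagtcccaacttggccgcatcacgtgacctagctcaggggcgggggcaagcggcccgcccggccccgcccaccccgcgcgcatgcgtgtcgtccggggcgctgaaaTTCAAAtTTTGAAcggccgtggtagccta
They lie at chr5:45669675-45669974 (plus strand) and chr9:22389157-22389456 (minus strand) on GRCm38.p6. Ncapg has 1 CCAAT box and 1 CHR, whereas Anln has 2 CHR matches side by side just after the start and no CCAAT box in this window. The promoter of Cdc25b, which had the smallest adjusted p of the 4, is not shown and has 1 CCAAT box and no CHR. CHR was held by 26 of 35 mitosis promoters (74.3%) and CCAAT by 28 (80.0%), against 1419 and 4361 of all 10118 promoters (43.1% for CCAAT). Replication promoters held CHR in 12.5% and CCAAT in 59.4%. In the reversing genes the shares lay closer to those of all promoters: CHR was held by 18.5% of promoters of those that rose in RAW-Blue and 12.7% of those that fell, and AP-1 (TGANTCA) by 8.33% and 7.77%, against 6.51% overall. NF-kB (GGGANTTTC) was held by 1.79% and 1.41%, against 1.18% overall.

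Cdc25b, the phosphatase that starts mitosis by activating CDK1, had 103 and 111 CPM in SWNT/CpG-treated RAW-Blue, against 112 and 103 CPM in untreated RAW-Blue, and 80.9, 86.4 and 86.1 CPM in SWNT/CpG-treated K-Luc, against 152 and 168 CPM in untreated K-Luc. Its response was not called in RAW-Blue (adjusted p = 1) and was -0.94 ± 0.06 in K-Luc. Ncapg had 120 and 136 CPM in SWNT/CpG-treated RAW-Blue, against 89.1 and 130 CPM in untreated RAW-Blue, and 92.2, 91.9 and 90.1 CPM in SWNT/CpG-treated K-Luc, against 194 and 199 CPM in untreated K-Luc, a difference of 1.32 ± 0.15. Tpx2, a spindle assembly factor, differed by 0.83 ± 0.10 and Anln by 0.90 ± 0.11. Among replication genes the primase gene Prim1 differed by 1.07 ± 0.16, the polymerase gene Pole by 0.74 ± 0.11 and Rrm2, a ribonucleotide reductase subunit, by 1.08 ± 0.16, each with a called fall in K-Luc and no call in RAW-Blue. Ccnb2 and Ccnf, cyclins of mitosis, Bub3, and Cenpf had no called difference, and Ccnb2 fell in both lines, with responses of -0.73 in RAW-Blue and -0.84 in K-Luc.

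Upstream regulators of the cycle were split. Of 18 D cyclins, inhibitors and related genes, 5 had a higher and 4 a lower difference (50% called, beside 25.4% of all genes). Cyclin D1 (Ccnd1), which couples growth signals to the cycle, had 1540 and 1500 CPM in SWNT/CpG-treated RAW-Blue, against 1170 and 1040 CPM in untreated RAW-Blue, and 278, 274 and 290 CPM in SWNT/CpG-treated K-Luc, against 487 and 452 CPM in untreated K-Luc, a reversal with a difference of 1.20 ± 0.09 (adjusted p = 4.44e-09). Rbl1 (p107) fell in K-Luc alone (difference 0.92 ± 0.14), and the antiproliferative gene Btg2 rose in K-Luc alone (-0.83 ± 0.15). Of 27 p53 targets and apoptosis genes 7 differences were higher and 7 lower (51.9% called, beside 25.4% of all genes). The survival gene Bcl2l1, which encodes BCL-XL, rose to 418 and 403 CPM in treated RAW-Blue, against 226 and 190 CPM in untreated, and fell to 56, 56.9 and 59.4 CPM in treated K-Luc, against 65 and 70.6 CPM in untreated. Plk2 (1.20), a stress-induced kinase, was higher, and Sesn1 (-0.90) and the BH3 protein Bid (-0.70) lower.

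**Figure D3:**
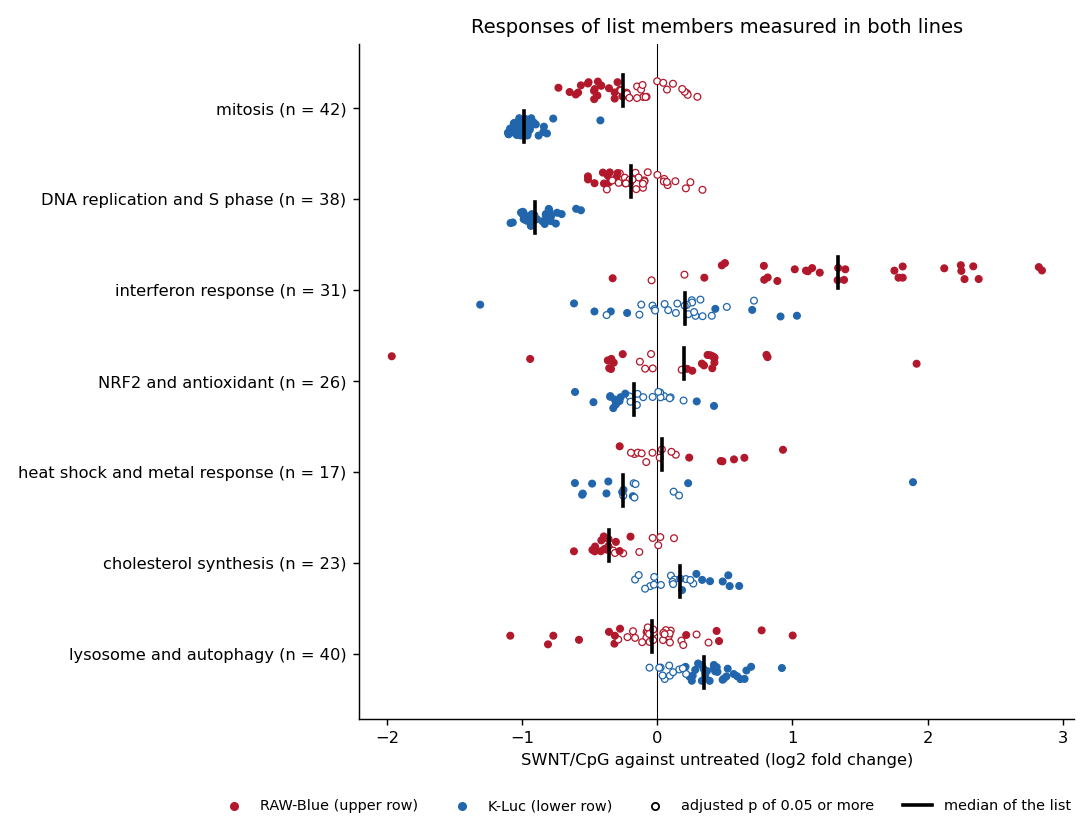
Log2 responses to SWNT/CpG of each member of 7 gene lists with a mean of at least 1 CPM in both lines, RAW-Blue in the upper and K-Luc in the lower row of each pair, filled where called, with black bars at the medians. Mitosis and replication genes sit near -0.98 and -0.90 in K-Luc, interferon genes spread to the right in RAW-Blue, and cholesterol genes lie left of 0 in RAW-Blue and mostly right of it in K-Luc.

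Of 23 tested genes of cholesterol synthesis 15 fell and none rose in RAW-Blue, where 14.1% of all genes fell. In K-Luc 9 rose, beside 15.3% of all genes, none fell and the other 14 had no call. Reversal was called for 7, beside 2.46% of all genes in that direction. The difference was lower in 14 and higher in none (60.9% called, beside 25.4% of all genes), with a median of -0.48 and median responses of -0.36 in RAW-Blue and 0.17 in K-Luc. The fold changes are small, and without untreated RAW-Blue library 1 the calls in RAW-Blue numbered 6, with a median of -0.15, and without treated RAW-Blue library 1 or with the compared groups alone 7. The rises called in K-Luc numbered 3 without untreated K-Luc library 2. Synthesis genes carry CCAAT boxes beside sites of SREBP2, and 2 promoters are shown with CCAAT in capitals (either strand).
Cyp51: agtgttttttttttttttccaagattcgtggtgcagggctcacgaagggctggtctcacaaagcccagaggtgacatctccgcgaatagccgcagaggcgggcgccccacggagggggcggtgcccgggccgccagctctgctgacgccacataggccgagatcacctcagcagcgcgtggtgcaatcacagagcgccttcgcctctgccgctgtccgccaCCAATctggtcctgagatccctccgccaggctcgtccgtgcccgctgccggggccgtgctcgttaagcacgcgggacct
Mvd: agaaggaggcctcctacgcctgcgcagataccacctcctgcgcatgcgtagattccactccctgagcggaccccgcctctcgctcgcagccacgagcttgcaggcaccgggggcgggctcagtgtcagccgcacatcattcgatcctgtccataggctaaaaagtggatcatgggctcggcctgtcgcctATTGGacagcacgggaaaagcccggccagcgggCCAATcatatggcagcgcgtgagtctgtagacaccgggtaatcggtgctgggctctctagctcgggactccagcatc
They lie at chr5:4104648-4104947 (minus strand) and chr8:122443373-122443672 (minus strand) on GRCm38.p6. Of the listed promoters 15 of 16 (93.8%) held CCAAT, against 43.1% of all 10118 promoters. Cyp51, the lanosterol demethylase, had 175 and 198 CPM in SWNT/CpG-treated RAW-Blue, against 274 and 240 CPM in untreated RAW-Blue, and 492, 507 and 506 CPM in SWNT/CpG-treated K-Luc, against 434 and 393 CPM in untreated K-Luc. The groups did not overlap in either line, and the difference was -0.75 ± 0.10 (adjusted p = 3.85e-06). Mvd, the mevalonate diphosphate decarboxylase, had 87 and 93.8 CPM in SWNT/CpG-treated RAW-Blue, against 160 and 118 CPM in untreated RAW-Blue, and 73.3, 76.5 and 75.4 CPM in SWNT/CpG-treated K-Luc, against 61.3 and 45.6 CPM in untreated K-Luc, a difference of -1.15 ± 0.19. Insig1, which holds SREBP in the endoplasmic reticulum when sterols are plentiful, differed by -0.70 ± 0.10, and Sqle, the squalene epoxidase, by -0.59 ± 0.09.

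Of 45 tested lysosome and autophagy genes, 5 rose and 9 fell in RAW-Blue, while 29 rose and none fell in K-Luc, and the difference was lower in 23 and higher in 3. Over all genes 14.7% rose and 14.1% fell in RAW-Blue, 15.3% rose in K-Luc and 11.1% had a lower difference. The RAW-Blue median was -0.04 and the K-Luc median 0.36, and the RAW-Blue one turned to 0.04 without untreated RAW-Blue library 1. Reversal was called for 8 of them, beside 2.46% of all genes. Lipa, the lysosomal acid lipase, had 343 and 357 CPM in SWNT/CpG-treated RAW-Blue, against 625 and 568 CPM in untreated RAW-Blue, and 163, 150 and 142 CPM in SWNT/CpG-treated K-Luc, against 133 and 115 CPM in untreated K-Luc, a difference of -1.10 ± 0.14. Tfeb, the transcription factor of lysosomal genes, fell to 17.2 and 16.8 CPM in treated RAW-Blue, against 40.1 and 32.1 CPM in untreated, and rose in K-Luc by 0.43. Ctsa (cathepsin A) differed by -0.76 ± 0.12. The 3 with a higher difference were Ctsl (0.51), the proton pump subunit Atp6v1h (0.36) and the autophagy receptor Sqstm1 (0.56), and Sqstm1 and Ctsl rose in both lines.

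Lipid handling outside synthesis was mixed, with 3 of 28 higher and 3 lower (21.4% called, beside 25.4% of all genes). Cpt1a, which brings fatty acids into mitochondria, had 31 and 31.5 CPM in SWNT/CpG-treated RAW-Blue, against 91.1 and 71.4 CPM in untreated RAW-Blue, and 215, 222 and 230 CPM in SWNT/CpG-treated K-Luc, against 168 and 181 CPM in untreated K-Luc, a difference of -1.71 ± 0.16. Fabp5, a fatty acid carrier, reversed the other way (1.38 ± 0.24). Mylip, a ubiquitin ligase, was lower (-0.92), and Hilpda, which blocks lipolysis, higher (0.89, called in 17 of 18 alternatives). Of 34 genes of glycolysis and hypoxia, 12 were lower and 3 higher (44.1% called, beside 25.4% of all genes). Adm (adrenomedullin, -1.85), the prolyl hydroxylase P4ha2 (-1.74), Ndrg1 (-0.84) and the mitophagy receptor Bnip3l (-0.59) were among the lower. Of 30 genes of oxidative phosphorylation 1 was higher and 1 lower, a share of 6.67% beside 25.4% of all genes.

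NRF2 is the transcription factor of antioxidant and glutathione genes. Of 30 NRF2 and antioxidant genes the difference was higher in 12 and lower in 2 (46.7% called, beside 25.4% of all genes), and 6 rose in RAW-Blue and fell in K-Luc, beside 1.68% of all genes. Srxn1 (sulfiredoxin) had 114 and 99.5 CPM in SWNT/CpG-treated RAW-Blue, against 69.1 and 52.1 CPM in untreated RAW-Blue, and 76.4, 81.7 and 72.8 CPM in SWNT/CpG-treated K-Luc, against 90.1 and 103 CPM in untreated K-Luc, a difference of 1.16 ± 0.14. Gclm, a subunit of the enzyme that starts glutathione synthesis, had 72.2 and 67.4 CPM in SWNT/CpG-treated RAW-Blue, against 54.4 and 49.6 CPM in untreated RAW-Blue, and 60.2, 58.3 and 56.4 CPM in SWNT/CpG-treated K-Luc, against 69.4 and 74.8 CPM in untreated K-Luc, a difference of 0.74 ± 0.09. Slc7a11, the cystine importer, rose in RAW-Blue alone (1.92, difference 1.87 ± 0.21). Ephx1, a microsomal epoxide hydrolase, went against the list with a difference of -2.06 ± 0.15. Hmox1 rose in both lines (0.41 in RAW-Blue, 0.42 in K-Luc).

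In the heat shock and metal list 7 of 20 were higher and 2 lower (45% called, beside 25.4% of all genes), and 4 rose in RAW-Blue and fell in K-Luc, beside 1.68% of all genes. The transferrin receptor Tfrc had 954 and 1060 CPM in SWNT/CpG-treated RAW-Blue, against 625 and 731 CPM in untreated RAW-Blue, and 350, 380 and 397 CPM in SWNT/CpG-treated K-Luc, against 535 and 594 CPM in untreated K-Luc, a difference of 1.18 ± 0.14. Metallothionein Mt2 (0.83) and the chaperone Hsp90aa1 (1.13) reversed alike, although untreated RAW-Blue libraries had 150 and 239 CPM of Hsp90aa1. The iron importer Slc11a2 rose in both lines, more in RAW-Blue (0.70 ± 0.12), and the iron exporter Slc40a1 rose more in K-Luc (difference -1.41 ± 0.23). Of 31 genes of the unfolded protein and ATF4 responses 11 were higher and 6 lower, a share of 54.8% called beside 25.4% of all genes. The amino acid genes Asns (1.29 ± 0.13), Psat1 (0.96 ± 0.12) and Shmt2 (0.91 ± 0.12) were among the higher, and Xbp1, the transcription factor of secretory stress, among the lower (-1.10 ± 0.11).

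Of 19 tested genes of antigen presentation 6 rose and 1 fell in RAW-Blue, where 14.7% of all genes rose and 14.1% fell. In K-Luc 12 rose, beside 15.3% of all genes, and none fell. The difference was lower in 5 and higher in 1, a share of 31.6% called that is near the 25.4% of all genes. Tapbp (tapasin), which loads peptide on MHC class I, had 146 and 146 CPM in SWNT/CpG-treated RAW-Blue, against 181 and 157 CPM in untreated RAW-Blue, and 208, 206 and 203 CPM in SWNT/CpG-treated K-Luc, against 118 and 109 CPM in untreated K-Luc, a difference of -1.07 ± 0.12. The peptide trimmer Erap1 (-0.67), the chaperone Calr (-0.75) and H2-K1 (-0.42) followed, with H2-K1 lost in 2 alternatives and its reads shared with near-identical class I genes in a way the sources used here do not describe.

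In the TGF-beta and BMP list 4 of 36 were higher and 6 lower, and 27.8% called is near the 25.4% of all genes. Id2, like Id1 a BMP target, had 24.8 and 25.4 CPM in treated and 21.8 and 20.1 CPM in untreated RAW-Blue, and fell in K-Luc to 18, 18.6 and 17.4 CPM with treatment, against 49.8 and 72.5 CPM without (difference 2.06 ± 0.24). Tgfbr2, a TGF-beta receptor chain, was lower (-0.82 ± 0.09). Of 29 receptors for chemokines and growth factors 2 were higher and 5 lower, or 24.1% called, again near that share. Il6st, the shared chain gp130, had 92.4 and 86.6 CPM in SWNT/CpG-treated RAW-Blue, against 122 and 126 CPM in untreated RAW-Blue, and 445, 497 and 514 CPM in SWNT/CpG-treated K-Luc, against 387 and 386 CPM in untreated K-Luc, a reversal of -0.78 ± 0.09. Ifngr1 reversed as well (-0.65 ± 0.11). Il1rl1, the IL-33 receptor, was higher (1.29 ± 0.32), a call that was lost without the term for run. It had 99.5, 174 and 168 CPM in treated K-Luc, against 168 and 292 CPM in untreated K-Luc, which overlap. Its RAW-Blue response was not called (adjusted p = 0.121).

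Adhesion and movement genes, of interest in a migration assay, differed at shares near the 25.4% of all genes. Of 35 focal adhesion and integrin genes 4 were higher and 6 lower. Integrin beta 5 (Itgb5) had 40.3 and 40.4 CPM in SWNT/CpG-treated RAW-Blue, against 89 and 70.1 CPM in untreated RAW-Blue, and 1370, 1310 and 1280 CPM in SWNT/CpG-treated K-Luc, against 762 and 593 CPM in untreated K-Luc, a difference of -1.98 ± 0.18. Integrin alpha 6 (Itga6) reversed the other way (1.78 ± 0.26), as did Itgb7 (1.69 ± 0.18), and the kinase gene Src rose in RAW-Blue alone (1.40 ± 0.16). Of 37 actin motility genes 5 were higher and 4 lower: Rhoc, a small GTPase, was higher (1.14 ± 0.10), the severing protein Gsn lower with a reversal (-1.08 ± 0.11), and the formin Diaph3 higher by its fall in K-Luc (0.87 ± 0.10) and the kinase Pak1 lower by its fall in RAW-Blue (-0.73 ± 0.09). In the SRF and YAP list 4 of 33 were higher and 4 lower, Vcl (vinculin, -0.53), Egr2 (-1.67) and Axl (-0.62) among the lower.

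Of 40 matrix and protease genes 8 rose and none fell in RAW-Blue, where most are near 0, and 28 rose and 3 fell in K-Luc, of which 15 rose and 2 fell without untreated K-Luc library 2. Of all tested genes 14.7% rose in RAW-Blue, near the share of the list there, and 15.3% rose and 16.7% fell in K-Luc. Summed, the matrix and protease genes had 13800 and 13400 CPM in treated and 3980 and 4230 CPM in untreated RAW-Blue. In K-Luc they had 45700, 44700 and 45400 CPM in treated and 33100 and 28900 CPM in untreated cells. The difference was called in 2, both higher (5%, beside 25.4% of all genes). Spp1, the secreted matrix protein osteopontin, had 11500 and 11300 CPM in SWNT/CpG-treated RAW-Blue, against 2420 and 2950 CPM in untreated RAW-Blue, and 2430, 2440 and 2130 CPM in SWNT/CpG-treated K-Luc, against 2520 and 2860 CPM in untreated K-Luc, a difference of 2.29 ± 0.13 (adjusted p = 2.09e-11), and was at like levels in untreated cells of both lines. Plaur, the urokinase receptor, differed by 1.63 ± 0.20. Among 27 phagocytic and scavenger receptors 5 were lower and 1 higher (22.2% called), with Lrp1 (-0.64 ± 0.12), Scarb2 (-1.01 ± 0.14) and Scarb1 (-0.47 ± 0.11) among the lower, and of 17 osteoclast genes 3 were lower and 1 higher (23.5% called), Nfatc1 (-0.83 ± 0.12), Mitf (-0.94 ± 0.22) and Ostm1 (-0.48 ± 0.11) being the lower. Of the markers used to check identity, Lyz2 (-0.88) and Cd14 (0.63) had called differences at 10.4 CPM or less in K-Luc. The call was lost in 8 of 18 alternatives for Cd14 and without untreated K-Luc library 2 for Lyz2 (adjusted p = 0.0856). Nes rose in RAW-Blue to 25 and 24.6 CPM with treatment, against 12.1 and 10.3 CPM without.

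Not every response differed. In 797 genes both lines were called in the same direction, and in 468 of these, 174 up and 294 down, the 95% interval of the difference lay within 0.5 log2 units of 0. Rhbdf2, a partner of the TNF-releasing protease ADAM17, had 185 and 166 CPM in SWNT/CpG-treated RAW-Blue, against 107 and 92.5 CPM in untreated RAW-Blue, and 20.4, 24.2 and 22.3 CPM in SWNT/CpG-treated K-Luc, against 12.1 and 12.2 CPM in untreated K-Luc, and its responses were 0.81 ± 0.10 in RAW-Blue and 0.86 ± 0.12 in K-Luc. Tnip1, a brake on NF-kB, rose by 0.80 in RAW-Blue and 0.64 in K-Luc, and Nucb2, Prmt2 and St5 also rose alike. Cenpm, H2afx, Ccnb2, Nanos1 and 2700094K13Rik fell alike, Cenpm, a centromere protein, with responses of -0.90 in RAW-Blue and -0.87 in K-Luc.

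The difference between lines was also computed for the study's other treatments. In each line cells were also given CpG-28 alone (CpG), nanotubes dispersed in lipid-PEG (SWNT/LP) or both together (CpG+SWNT/LP), at the same 10 µg/mL. SWNT/CpG held no lipid-PEG. In a comparison with CpG+SWNT/LP, the lipid-PEG and the coating of the tube by CpG therefore cannot be told apart. Against the same untreated libraries, the difference between lines was called for 2926 genes with CpG, 3199 with CpG+SWNT/LP and 25 with SWNT/LP, and these counts share their controls with the SWNT/CpG count. A direct test of SWNT/CpG against CpG+SWNT/LP, which shares no untreated library, found 662 genes (4.96%) whose line difference was higher (376) or lower (286) with SWNT/CpG, and SWNT/CpG against CpG found 350 (2.62%), 234 higher and 116 lower. These counts moved to 295 and 206 with run 2 alone, and to 213 and 102 at the lowest when 1 library was left out.

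For Id1 the line difference was larger with SWNT/CpG than with CpG+SWNT/LP. In RAW-Blue its response was 1.83 with SWNT/CpG, 1.25 with CpG+SWNT/LP, 1.34 with CpG and 0.38 with SWNT/LP, and in K-Luc -1.46, 0.24, 0.10 and -0.10 in the same order. Set against CpG+SWNT/LP, SWNT/CpG moved its line difference by 2.28 ± 0.20 (adjusted p = 7.67e-07). Id2 did likewise (1.79 ± 0.23, adjusted p = 0.000158). Pmepa1 reversed with SWNT/CpG, whereas with CpG its responses were -0.23 in RAW-Blue and -0.20 in K-Luc, and its line difference was moved by -4.45 ± 0.27 with SWNT/CpG against CpG+SWNT/LP (adjusted p = 6.37e-10). The corresponding values were -3.31 ± 0.36 for Cxcr4, -1.06 ± 0.10 for Tlr2, -1.28 ± 0.19 for Hspb7 and 2.12 ± 0.37 for Podxl, all called.

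For other reversing genes SWNT/CpG was not told apart from CpG+SWNT/LP. The value for Mxd4 was -0.23 ± 0.20 (adjusted p = 0.653), for Fosl1 0.18 ± 0.16 (adjusted p = 0.662) and for Pik3ip1 0.56 ± 0.43 (adjusted p = 0.595). With CpG alone the Mxd4 response was -1.11 in RAW-Blue and 1.26 in K-Luc, both called. Of the largest differences, Ccl7 (-0.40 ± 0.21), Myc (-0.23 ± 0.34) and St6gal1 (-0.32 ± 0.21) were also not called in this test.

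By list, the line difference with SWNT/CpG against CpG+SWNT/LP was called in 4.96% of all genes, with a median of 0.02. It was higher in 17 of 42 mitosis genes (median 0.41) and in 1 of 38 replication genes (median 0.19), and lower in none of either. It was higher in 11 of 42 interferon genes and lower in none (median 0.77), and Isg15 was one of them (0.78 ± 0.18). For cholesterol synthesis it was lower in 8 of 23 and higher in none (median -0.32), Cyp51 included (-0.67 ± 0.09), and against CpG alone, where 2.62% of all genes were called, lower in 9. Lysosome and autophagy genes were lower in 6 of 45 against CpG+SWNT/LP and in none against CpG.

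**Figure D4:**
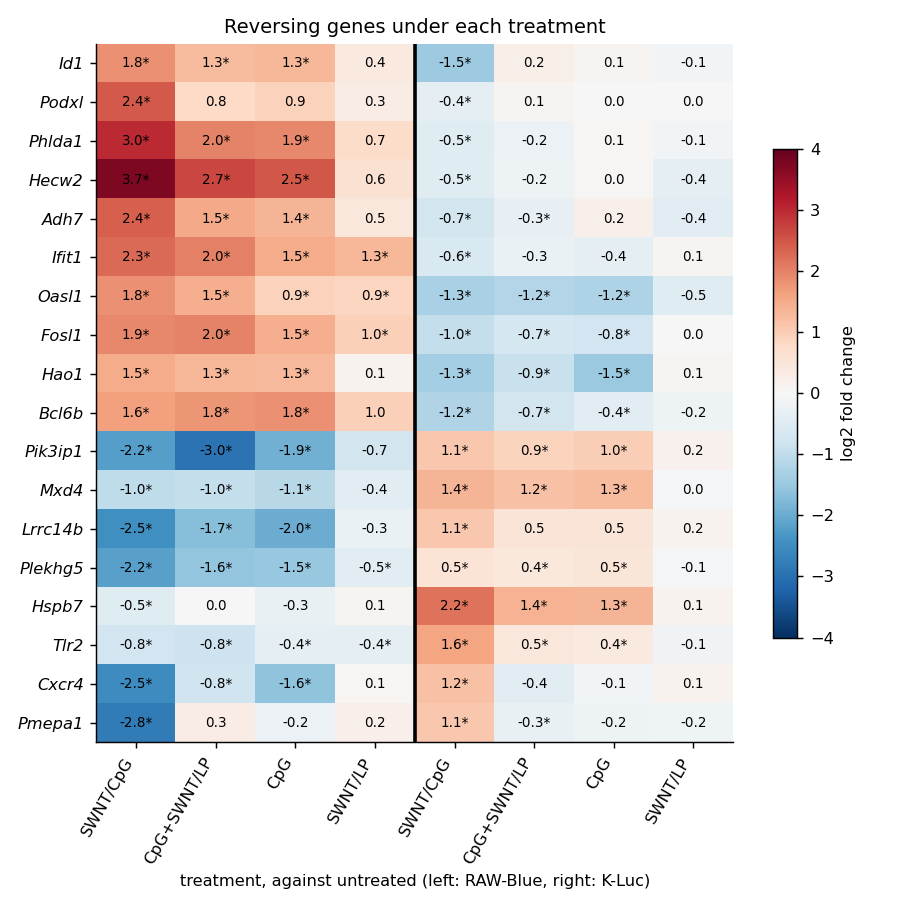
Log2 fold changes against untreated of 18 reversing genes (rows) under the 4 treatments in RAW-Blue (left) and K-Luc (right), with stars at an adjusted p under 0.05. Id1, Cxcr4 and Pmepa1 carry stars of opposite sign in the 2 lines in the SWNT/CpG columns and under no other treatment, whereas Oasl1, Hao1, Mxd4 and Pik3ip1 have opposite signs in both lines under each treatment with CpG.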

How the data were processed

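Poly(A) RNA was sequenced with a stranded kit, and TopHat2 2.0.14, HTSeq 0.6.0 and the build mm9 are named in the submitters' processing notes. The authors deposited raw read counts per gene for 24 libraries, and normalization is this work's own. Genes were tested in edgeR 4.0.16 (R 4.3.3, limma 3.58.1) with TMM scaling, a filter on low counts by group (minimum 10 in a library, 15 in total) and a quasi-likelihood F test, and p-values were adjusted by Benjamini and Hochberg's method over all tested genes. All 24 libraries entered 1 fit with group and sequencing run. Each SE is the log2 difference divided by the root of its F. Run 1 held 3 K-Luc libraries, so a RAW-Blue value within run 1 cannot be had. DESeq2 1.42.0 and other settings were alternatives, and the code was tested on simulated data.

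Named genes had a called difference, over 3 counts in each compared library and at least 1 CPM in the higher group of each line. They are the 10 largest differences each way, the 10 largest of each reversing class without overlap, and up to 4 per list by adjusted p. Added to them are the 10 genes with the largest responses among those called the same way in both lines with a difference interval within 0.5 log2 units of 0. Tlr9, Unc93b1, Myd88, Tnf and Nfkbia, and list members printed beyond the 4, are given as values, the last chosen after their values were seen. The members and lists were chosen with earlier results of these data known. Some named genes are not reported here. Promoters were matched by gene symbol. Figures were drawn with matplotlib 3.10.9.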

Additional observations from a re-analysis of the deposited data

Results flagged for a closer look

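The values below were picked out because the response to SWNT/CpG differed between RAW-Blue and K-Luc by the test of the difference itself. That test called 3392 genes. Opposite called responses were found in 224 genes that rose in RAW-Blue and fell in K-Luc and in 329 that fell in RAW-Blue and rose in K-Luc. The line difference itself differed between SWNT/CpG and CpG+SWNT/LP in 662 genes, and between SWNT/CpG and CpG in 350. Among the named genes the RAW-Blue minus K-Luc difference on the log2 scale was 4.66 for Ccl7, 4.23 for Hecw2, 4.01 for Pdpn, 3.99 for Cth, 3.65 for Upp1, 3.48 for Phlda1, 3.31 for Myc, 3.29 for Id1, 3.29 for Ccl2, 3.14 for Adh7, 3.13 for Oasl1, 2.89 for Ifit1, 2.87 for Fosl1, 2.85 for Hao1, 2.84 for Bcl6b and 2.81 for Podxl. It was -3.86 for Pmepa1, -3.84 for Hp, -3.67 for Cxcr4, -3.52 for Lrrc14b, -3.33 for St6gal1, -3.28 for Pik3ip1, -2.70 for Plekhg5, -2.67 for Hspb7, -2.59 for Vwa1, -2.35 for Mxd4 and -2.35 for Tlr2. No group held the 4 libraries that a test for a single outlying library needs.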

How the results depend on the processing

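None of the 3392 called differences changed sign under any of 18 alternatives. The alternatives reuse the libraries in which these genes were called, so kept signs are no independent support. With the compared groups alone 1872 of the 3392 stayed called with the same sign. With the compared groups alone 1901 genes had a called difference (853 higher), 2178 a called RAW-Blue response, 1886 a line difference that differed between SWNT/CpG and CpG+SWNT/LP, and 66 rose in RAW-Blue and fell in K-Luc. With run 2 alone 2606 K-Luc responses were called, 295 and 206 line differences differed from those of CpG+SWNT/LP and of CpG, and 103 genes rose in RAW-Blue and fell in K-Luc against 204 of the opposite kind. Fewer libraries enter both settings.

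Leaving out 1 library gave 2019 to 4878 called differences (1098 to 2548 higher, 921 to 2330 lower), 2431 to 5887 RAW-Blue responses and 1837 to 3584 K-Luc responses. The low ends came without untreated K-Luc library 2 or, for RAW-Blue, treated RAW-Blue library 1, and the high ends of the differences and RAW-Blue responses without untreated RAW-Blue library 2. Genes that rose in RAW-Blue and fell in K-Luc numbered 75 to 493, and those of the opposite kind 149 to 570. Line differences that differed from those of CpG+SWNT/LP numbered 213 to 480, and from those of CpG 102 to 290, lowest without RAW-Blue CpG+SWNT/LP library 1 and RAW-Blue CpG library 1. The median RAW-Blue response of lysosome genes ran from -0.145 to 0.0356, positive without untreated RAW-Blue library 1. The cause was not tested. Where an arm is left with 1 library, that library is taken to vary like the others.

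Whether replicate numbers pair the libraries was not settled. Deviations of same-numbered libraries correlated at -0.0227 in RAW-Blue and at -0.512 and -0.194 in K-Luc. All libraries of run 1 carry the same replicate number, so a fitted term for run pushes the correlation of their deviations towards negative values. The 2 libraries of a RAW-Blue group deviate by equal and opposite amounts, so both replicate numbers give the same value. With a replicate block the difference was called for 3830 genes, against 3392 in the main test. Genes that differed between SWNT/CpG and CpG+SWNT/LP then numbered 1117, against 662, and between SWNT/CpG and CpG 555, against 350. At 1 CPM a library held 13 to 22 counts, with a counting error of 27.4% to 21.1%, which limits genes near that level.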
